A study of Mus musculus with 6 samples.

Results

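The secreted inflammatory signals of fibroblasts were examined in NIH/3T3 cells, a mouse embryonic fibroblast line that grows indefinitely in culture, after silencing of Aldoa, which encodes the glycolytic enzyme aldolase A. The genes were chosen by symbol as the chemokines Ccl2, Ccl5, Ccl7, Cx3cl1, Cxcl1, Cxcl5, Cxcl10 and Cxcl12 and the cytokines Il6 and Lif. Of these 10 genes, 6 were measured among the 18001 genes of the table, namely Ccl7, Cx3cl1, Cxcl1, Cxcl5, Il6 and Lif, and Ccl2, Ccl5, Cxcl10 and Cxcl12 were not analysed here. Cells received either non-targeting control siRNAs (siCtrl) or a pool of siRNAs against Aldoa (siAldoa) and were harvested after 48 h. There were 3 biological replicates per group, with poly(A) RNA sequencing of each. With no other siRNA set and no rescue, loss of Aldoa and other effects of the pool cannot be told apart. Both groups are the same cell line with no other treatment, so the data describe a cultured line and transient transfection only.

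Chemokines are small secreted proteins that attract leukocytes through G protein-coupled receptors, and they are named after the spacing of their first cysteines. Cxcl1 and Cxcl5 are CXC chemokines that attract neutrophils through the receptor Cxcr2, Ccl7 is a CC chemokine that attracts monocytes, and Cx3cl1 (fractalkine) is the CX3C chemokine, which is made as a membrane protein and shed by proteases. Il6 and Lif are cytokines that signal through the shared receptor chain gp130 (Il6st), JAK kinases and Stat3. In fibroblasts these genes are typically induced through NF-kB and AP-1, and their mRNAs are often short-lived because of AU-rich elements in the 3′ UTR.

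To show how the 4 chemokines differ, 60 coding bases around the first cysteine pair were read from GENCODE transcripts of GRCm38 (mm10), 5′ to 3′, with the cysteine codons in capitals. In Cxcl1 and Cxcl5 1 codon separates the pair, and the codons for glutamate, leucine and arginine that mark neutrophil-attracting CXC chemokines stand directly before it. In Ccl7 the cysteine codons are adjacent, and in Cx3cl1 the pair lies at codons 32 and 36 of 395.
Cxcl1: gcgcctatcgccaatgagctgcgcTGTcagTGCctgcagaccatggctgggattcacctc
Cxcl5: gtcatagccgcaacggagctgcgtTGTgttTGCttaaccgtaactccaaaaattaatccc
Ccl7: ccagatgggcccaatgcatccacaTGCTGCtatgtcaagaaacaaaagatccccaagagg
Cx3cl1: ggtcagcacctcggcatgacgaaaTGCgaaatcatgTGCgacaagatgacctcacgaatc

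Promoter sequences from RefSeq (GRCm38.p6) were matched for Cxcl1, Il6, Lif and Cx3cl1, which is 4 of the 6 genes. The 250 bases before the listed start were searched on both strands for the kappaB motif, for the AP-1 motif TGANTCA and for TATAAA. The windows of Cxcl1, Il6 and Lif are printed because these genes carried a kappaB or AP-1 match, shown in capitals.
Cxcl1, chr5:90890995-90891244, plus strand: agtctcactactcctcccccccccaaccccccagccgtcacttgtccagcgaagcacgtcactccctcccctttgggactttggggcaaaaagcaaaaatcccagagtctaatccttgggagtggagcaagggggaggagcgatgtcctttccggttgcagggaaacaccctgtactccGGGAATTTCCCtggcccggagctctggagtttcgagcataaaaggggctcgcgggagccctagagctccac
Il6, chr5:30012864-30013113, plus strand: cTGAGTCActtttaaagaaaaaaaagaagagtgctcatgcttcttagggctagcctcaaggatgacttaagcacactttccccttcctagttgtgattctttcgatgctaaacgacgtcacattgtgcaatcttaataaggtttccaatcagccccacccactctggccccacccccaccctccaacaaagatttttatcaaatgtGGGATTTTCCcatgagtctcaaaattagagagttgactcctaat
Lif, chr11:4257318-4257567, plus strand: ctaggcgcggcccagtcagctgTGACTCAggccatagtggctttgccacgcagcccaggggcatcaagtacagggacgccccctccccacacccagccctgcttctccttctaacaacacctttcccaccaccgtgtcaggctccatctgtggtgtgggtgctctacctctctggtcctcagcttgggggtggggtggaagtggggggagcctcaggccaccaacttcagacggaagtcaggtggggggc
In the Cxcl1 window the kappaB motif matched 71 to 62 bases before the start and, overlapping it on the other strand, 70 to 61 bases before it. The Il6 window held a kappaB match 44 to 35 bases before the start and an AP-1 match 249 to 243 bases before it, and the Lif window an AP-1 match 228 to 222 bases before it. Among 11192 RefSeq promoter windows of the same length, 4.39% held the kappaB motif, 4.92% the AP-1 motif and 7.11% TATAAA. The Cx3cl1 window held TATAAA 6 to 1 bases before the listed start and neither of the other motifs. This window, chr8:94771930-94772179, lies mostly inside the GENCODE gene, which starts at 94772009. It therefore covers few bases upstream of that gene start. These matches describe letters only.

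The 3′ UTRs of the same GENCODE transcripts were searched for the AU-rich pentamer ATTTA and for the nonamer TTATTTATT, which contains the pentamer. Cxcl1 and Lif held 7 pentamers each, Il6 6, Cxcl5 5, Ccl7 2 and Cx3cl1 1. The median over 13408 genes was 1, and 35.2% of them held 3 or more. Per kilobase, Il6 (14.1) and Cxcl1 (11.8) had the densest 3′ UTRs, against 4.6 in Ccl7, 4.50 in Cxcl5, 2.2 in Lif, 0.534 in Cx3cl1 and a median of 1.27 over all genes searched. The nonamer was found in Cxcl1, Lif and Cx3cl1, and in 7.77% of all genes searched. For these 3 genes 30 bases around the first nonamer are shown, with the nonamer in capitals.
Cxcl1: atttatgtatTTATTTATTccacaaagtgt
Lif: aaaggggcctTTATTTATTatttaaaactt
Cx3cl1: cagtgaacaaTTATTTATTggattcccagc

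Expression was deposited as CPM, the reads of a gene scaled to an effective library size that differs from the read total. The 6 libraries held 3692341 to 3771129 reads, and 3 reads corresponded to 0.786 to 0.822 CPM. Aldoa itself fell to 12.7% of the control. Groups were compared with limma on log2(CPM + 1) over all 18001 genes, and a gene was called at an adjusted p-value under 0.05. Fold changes on this scale are log2 values that understate the change of genes with few reads. Replicate 3 stood apart in both groups: the chi-square of reads per degree of freedom was 1.12 between siCtrl replicates 1 and 2 and 1.11 between siAldoa replicates 1 and 2, against 1.97 to 3.03 for pairs with replicate 3. The values of the 3 libraries of a group are given in the order of replicates 1, 2 and 3.

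The mRNAs of Cxcl5, Ccl7, Cxcl1 and Lif were higher with siAldoa than with siCtrl, while Il6 and Cx3cl1 did not pass the test. Thus 4 of the 6 genes were called higher and 0 lower, where 10.4% of all genes were called higher, 10.0% lower and 20.4% in either direction. The 6 genes were chosen with earlier results of these data known, so their count is not independent of these data. In 5 of the 6 genes every siAldoa library lay above every siCtrl library, which held for 16.7% of all genes. The fitted log2 fold changes ranged from 0.08 for Cx3cl1 to 1.33 for Cxcl5 with a median of 0.79, beside a median of -0.0023 over all genes. Of the 6 genes, 5 had a mean of at least 1 CPM, and Il6 was below it. Without replicate 3 of both groups, Cxcl5 and Cxcl1 were the 2 genes that passed.

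**Figure D1:**
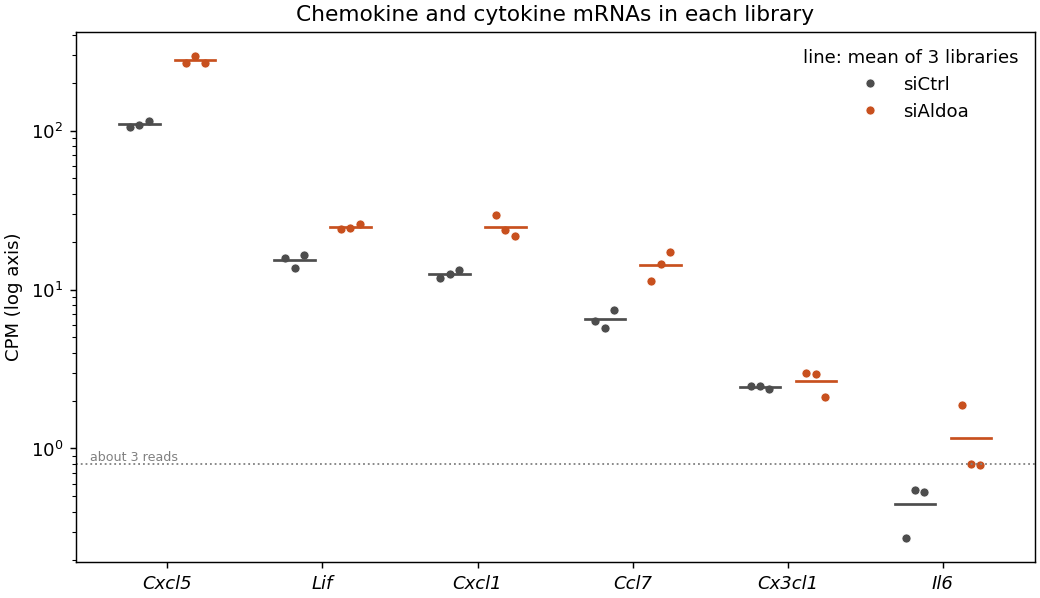
Levels of the 6 mRNAs in CPM (log axis), with 1 point per library for siCtrl and siAldoa and a line at the mean of 3 libraries. The dotted line marks about 3 reads. The siAldoa points of Cxcl5, Lif, Cxcl1 and Ccl7 lie above the siCtrl points with no overlap, those of Cx3cl1 overlap, and 5 of the 6 Il6 points lie near or under the line.

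Cxcl5 (ENSMUSG00000029371, GRCm38 chromosome 5, 90759360 to 90761624, plus strand), a neutrophil attractant, had the largest log2 fold change of the 6 genes on the log2(CPM + 1) scale. On ratios of mean CPM, Il6 (2.57, on few reads) was slightly above Cxcl5. Its level was 105, 108 and 114 CPM with siCtrl and 267, 293 and 268 CPM with siAldoa. The lowest siAldoa library was thus well above the highest siCtrl library. The mean rose from 109 ± 4.63 CPM to 276 ± 14.7 CPM (SD, n = 3), a ratio of 2.53. The log2 fold change of 1.33 had a standard error of 0.052 and a 95% interval of 1.22 to 1.44 (limma adjusted p = 1.6e-14), and it ranked 41 from the top among all genes. The gene was covered by 384 to 1097 reads per library. Of its 40-base words, 0.700% also occurred in other genes.

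Cxcl1 (ENSMUSG00000029380, chromosome 5, 90891241 to 90893115, plus strand), the second neutrophil attractant, carries the kappaB match and the AU-rich 3′ UTR shown above. It was measured at 11.8, 12.6 and 13.2 CPM with siCtrl and at 29.4, 23.5 and 21.7 CPM with siAldoa. The siAldoa libraries were spread more widely than the siCtrl libraries, and the groups did not overlap. The mean went from 12.5 ± 0.727 CPM to 24.9 ± 4.02 CPM (SD, n = 3), a ratio of 1.99. The log2 fold change of 0.93 had a standard error of 0.14 and a 95% interval of 0.63 to 1.22 (limma adjusted p = 3.4e-05).

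Ccl7 (ENSMUSG00000035373, chromosome 11, 82045712 to 82047525, plus strand) attracts monocytes, and its mRNA had 6.30, 5.74 and 7.41 CPM with siCtrl and 11.3, 14.4 and 17.3 CPM with siAldoa. All siAldoa libraries were above the siCtrl libraries, on 21 to 66 reads per library. The mean went from 6.48 ± 0.847 CPM to 14.3 ± 2.97 CPM (SD, n = 3), a ratio of 2.21. The log2 fold change of 1.02 had a standard error of 0.19 and a 95% interval of 0.63 to 1.42 (limma adjusted p = 0.00036). The call was lost without replicate 2 of both groups (limma adjusted p = 0.077) and without replicate 3 of both groups (limma adjusted p = 0.064). Cxcl5 and Ccl7 were called with a log2 fold change of at least 1, which applied to 0.722% of all genes.

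Cx3cl1 (ENSMUSG00000031778, chromosome 8, 94772009 to 94782427, plus strand), the membrane-bound chemokine, was the gene whose groups overlapped. Its level was 2.47, 2.46 and 2.38 CPM with siCtrl and 2.97, 2.94 and 2.09 CPM with siAldoa. Replicate 3 of siAldoa was the lowest of all 6 libraries, and each library held 8 to 11 reads. The log2 fold change of 0.08 had a standard error of 0.25 and a 95% interval of -0.44 to 0.61 (limma adjusted p = 0.87). It was 0.02 without siAldoa replicate 1, 0.03 without siAldoa replicate 2 and 0.20 without siAldoa replicate 3.

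Lif (ENSMUSG00000034394, chromosome 11, 4257557 to 4272514, plus strand), a cytokine of the IL6 family, was measured at 15.9, 13.7 and 16.4 CPM with siCtrl and at 24.0, 24.3 and 25.7 CPM with siAldoa. The 3 siAldoa libraries were close together and all above the siCtrl libraries. The mean rose from 15.3 ± 1.45 CPM to 24.7 ± 0.874 CPM (SD, n = 3), a ratio of 1.61. The log2 fold change of 0.66 had a standard error of 0.13 and a 95% interval of 0.39 to 0.92 (limma adjusted p = 0.00058), the smallest of the 4 called. Without replicate 3 of both groups the limma adjusted p was 0.058.

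Il6 (ENSMUSG00000025746, chromosome 5, 30013114 to 30019981, plus strand), the main inflammatory cytokine of the group, was barely detected. There were 1, 2 and 2 reads with siCtrl and 7, 3 and 3 reads with siAldoa. All libraries except siAldoa replicate 1 were thus at or under 3 reads, although the groups did not overlap. The summed reads were 5 and 13, a ratio of 2.56 with an exact 95% interval of 0.856 to 9.17 that covers counting error only. The log2 fold change of 0.54 had a standard error of 0.27 and a 95% interval of -0.02 to 1.11 (limma adjusted p = 0.18), and without siAldoa replicate 1 it was 0.31. A difference in Il6 was not detectable at this depth.

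In an exact two-sided permutation test over libraries, Cxcl5, Cxcl1, Ccl7, Lif and Il6 each gave p = 0.1, the smallest that 3 libraries against 3 allow, and Cx3cl1 gave p = 0.4.

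**Figure D2:**
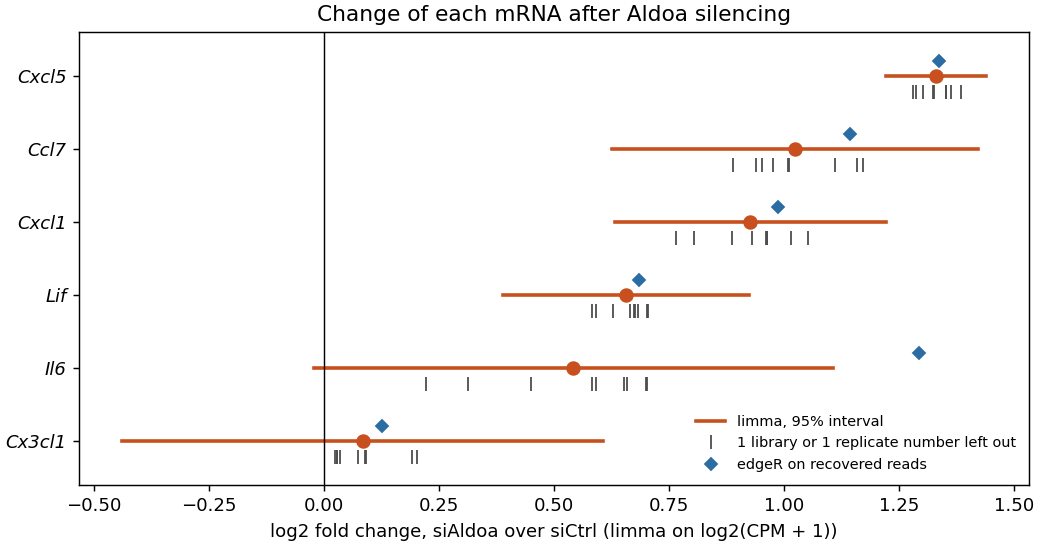
Log2 fold change of each mRNA, siAldoa over siCtrl, from limma on log2(CPM + 1), with the 95% interval as a bar. Ticks show the value with 1 library or 1 replicate number left out, and diamonds the value from edgeR on recovered reads. The intervals of Cxcl5, Ccl7, Cxcl1 and Lif lie above 0, and those of Il6 and Cx3cl1 include 0.

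Levels can be compared between genes only per length. Per kilobase of the gene's merged exons, Cxcl5 was highest in siCtrl (58.7 CPM per kb), followed by Ccl7 (8.10 CPM per kb), Cxcl1 (6.68 CPM per kb), Lif (3.52 CPM per kb), Cx3cl1 (0.620 CPM per kb) and Il6 (0.185 CPM per kb). In siAldoa the levels were 148 CPM per kb for Cxcl5, 17.9 CPM per kb for Ccl7, 13.3 CPM per kb for Cxcl1, 5.67 CPM per kb for Lif, 0.679 CPM per kb for Cx3cl1 and 0.477 CPM per kb for Il6. On merged exons the order was thus the same in both groups, but in siAldoa the libraries of Ccl7 (14.2 to 21.6 CPM per kb) and Cxcl1 (11.6 to 15.7 CPM per kb) overlapped, as did those of Cx3cl1 and Il6. The order of Ccl7 and Cxcl1, and in siAldoa that of Cx3cl1 and Il6, depended on the length used. Per kilobase of 1 annotated transcript, which is 953 bases for Cxcl1 against 1875 bases of merged exons, Cxcl1 had 13.1 CPM per kb and Ccl7 8.10 CPM per kb in siCtrl. On that length Il6 was below Cx3cl1 in siCtrl (0.394 against 0.735 CPM per kb) and above it in siAldoa (1.02 against 0.805 CPM per kb), where their libraries overlapped.

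**Figure D3:**
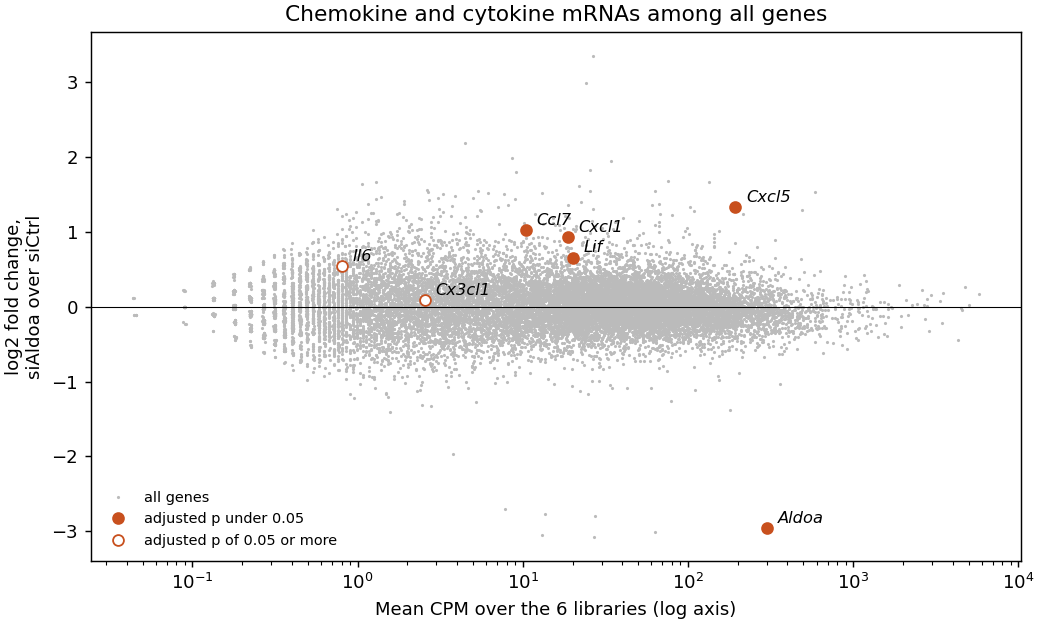
Log2 fold change, siAldoa over siCtrl, against the mean CPM over the 6 libraries (log axis) for all genes in grey. The 6 chemokine and cytokine genes and Aldoa are marked, filled where the limma adjusted p-value was under 0.05. Cxcl5 stands at the upper edge of genes of its abundance, and Il6 lies among genes with few reads.

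The genes whose profile over the 6 libraries was most like that of Cxcl5 were Hspa4l, a heat shock protein of the Hsp110 family, Scai, a suppressor of MRTF-dependent transcription, and Srgap3, a GTPase-activating protein. Likeness was the Euclidean distance between log2(CPM + 1) values centred on the siCtrl mean, over 11528 genes, and it was 0.077 for Hspa4l, 0.084 for Scai and 0.136 for Srgap3. Hspa4l went from 281 to 693 CPM (log2 fold change 1.30), Scai from 33.7 to 87.6 CPM (log2 fold change 1.35) and Srgap3 from 14.9 to 38.1 CPM (log2 fold change 1.30). Fold changes near that of Cxcl5 follow from this choice, because the distance mostly reflects the size of the siAldoa shift.

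Since several chemokine genes lie in clusters, protein-coding genes within 100 kb of the 6 genes were looked up by position. The search gave 30 neighbours, with Cxcl15 listed beside both Cxcl1 and Cxcl5. Of these, 17 were in the table, with 0 called higher and 2 lower by limma (Ciapin1 and Arl2bp, both beside Cx3cl1). Among all genes 10.4% were called higher and 10.0% lower. Ppbp, a platelet CXC chemokine 6.89 kb from Cxcl5, had 9.0 ± 2.81 CPM in siCtrl and 8.25 ± 0.906 CPM in siAldoa (SD, n = 3, limma adjusted p = 0.87). Mthfd2l, a mitochondrial folate enzyme gene 38.0 kb from Cxcl1, had 46.4 CPM and 47.1 CPM (limma adjusted p = 0.88). Ccl8, a CC chemokine 67.7 kb from Ccl7, had 0.548, 0 and 0 CPM with siCtrl and 0.540, 0.802 and 1.31 CPM with siAldoa (limma adjusted p = 0.084). It rests on few reads, with a log2 fold change of 0.68 that ranged from 0.42 to 1.03 with libraries left out, and it was called higher without siCtrl replicate 1 (limma adjusted p = 0.044). These neighbours were picked after their values were seen.

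Of 14 receptors of the chemokines and cytokines 5 were in the table, with 0 called higher and 2 lower. The shares of all genes were 10.4% higher and 10.0% lower. Ackr3, an atypical receptor that binds Cxcl12, fell from 60.6 to 40.9 CPM (log2 fold change -0.56, limma adjusted p = 1.2e-05). Il6st, the gp130 chain through which Il6 and Lif signal, fell from 308 to 263 CPM (log2 fold change -0.23, limma adjusted p = 0.0010). Without replicate 1 of both groups the limma adjusted p of Il6st was 0.12, and without replicate 2 of both groups it was 0.084. With all 6 libraries but without the mean-variance trend it was 0.13. The ligand-binding chains did not pass, with log2 fold changes of 0.26 for Il6ra (limma adjusted p = 0.072) and 0.48 for Lifr (limma adjusted p = 0.12), which was 0.25 without siCtrl replicate 3. With scaling to the column total Il6ra was called higher (limma adjusted p = 0.0497). Cx3cr1, the receptor of Cx3cl1, was at 2.17 CPM in siCtrl and 2.22 CPM in siAldoa.

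Of 30 other chemokine ligands 7 were in the table, with 1 called higher and 1 lower and a median log2 fold change of -0.07. For this and the other lists of this paragraph, the shares of all genes were 10.4% higher and 10.0% lower. Ccl9, a CC chemokine, fell from 16 to 9.32 CPM (log2 fold change -0.72, limma adjusted p = 0.0021), opposite to Ccl7. The gene called higher was Ccl25, from 43.1 to 52.7 CPM (log2 fold change 0.28, limma adjusted p = 0.029), whose groups overlapped. Its call was lost in turn without each of siCtrl replicates 1 and 3 and siAldoa replicates 1 and 3 (limma adjusted p = 0.12 to 0.18), with quantile normalization, without the mean-variance trend and with DESeq2. The call of Ccl9 was lost without replicate 1 of both groups (limma adjusted p = 0.075) and without replicate 3 of both groups (limma adjusted p = 0.10). Among 6 of 11 other IL6 family genes, 2 were called higher and 0 lower. Osmr, the oncostatin M receptor chain that pairs with gp130, rose from 33.7 to 60.1 CPM (log2 fold change 0.82, limma adjusted p = 5.0e-07). Of 13 other inflammatory cytokines 5 were in the table and 2 were called higher. One of them was Il18, an IL1 family cytokine, at 1.63 CPM in siCtrl and 3.91 CPM in siAldoa (limma adjusted p = 0.014), and its call was lost in turn without each of siCtrl replicates 1 and 3 and siAldoa replicates 1 and 2 (limma adjusted p = 0.062 to 0.084). The other was Il15, a lymphocyte growth cytokine, which lost its call without the same 4 libraries in turn (limma adjusted p = 0.087 to 0.21), so that 0 genes of this list were called without any of them.

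NF-kB subunits and kinases are the transcription factors and kinases through which these chemokines are commonly induced. Of 15 such genes 5 were called higher and 0 lower, with a median log2 fold change of 0.10. Among all genes 10.4% were called higher and 10.0% lower. The 5 became 2 without the mean-variance trend, 3 with DESeq2 and 1 without replicate 3 of both groups. Rela, the p65 subunit, rose from 64.0 to 86.1 CPM (log2 fold change 0.42, limma adjusted p = 3.8e-05). Chuk, the kinase IKK alpha, rose from 109 to 142 CPM (log2 fold change 0.38), and Traf6, an adaptor ubiquitin ligase, from 42.4 to 55.0 CPM (log2 fold change 0.37). Without replicate 3 of both groups Chuk had a limma adjusted p of 0.066 and Traf6 of 0.064. Traf6 had a limma adjusted p of 0.053 without replicate 1 of both groups, and Chuk of 0.053 without the mean-variance trend.

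Of 13 NF-kB feedback and target genes, 2 were called higher and 1 lower, with a median log2 fold change of 0.27. The shares of all genes were 10.4% higher and 10.0% lower. Ptgs2, the inducible cyclooxygenase, had 291, 308 and 301 CPM with siCtrl and 889, 878 and 849 CPM with siAldoa. Its log2 fold change of 1.54 (limma adjusted p = 6.7e-19) was larger than that of Cxcl5. Nfkbia, the inhibitor IkB alpha, went from 13.8 to 20.3 CPM (log2 fold change 0.51, limma adjusted p = 0.019), and Sod2, the mitochondrial superoxide dismutase, from 88.3 to 75.3 CPM (log2 fold change -0.23, limma adjusted p = 0.021). Nfkbia lost its call without siCtrl replicates 2 or 3 or siAldoa replicates 2 or 3 in turn (limma adjusted p = 0.054 to 0.16). Sod2 lost it without siCtrl replicates 1 or 2 or siAldoa replicates 1 or 3 in turn (limma adjusted p = 0.056 to 0.14).

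In JAK-STAT signalling, the pathway downstream of Il6 and Lif, 3 of 14 genes were called higher and 0 lower. The shares of all genes were 10.4% higher and 10.0% lower. Stat3, the main transcription factor of the pathway, rose from 71.9 to 117 CPM (log2 fold change 0.69, limma adjusted p = 1.7e-08). Stat5a rose from 8.12 to 13.2 CPM (log2 fold change 0.64, limma adjusted p = 0.010), and its adjusted p was 0.062 without siAldoa replicate 3. Stat5a also lost its call with DESeq2 (DESeq2 adjusted p = 0.056). The same held when any replicate number was left out of both groups (limma adjusted p = 0.065 to 0.12). Jak1, a kinase bound to gp130, had a log2 fold change of 0.14 (limma adjusted p = 0.020) and lost its call without any 1 of 5 libraries, all but siCtrl replicate 2 (limma adjusted p = 0.063 to 0.12). Socs3, a feedback inhibitor induced by Stat3, had a log2 fold change of 0.10 (limma adjusted p = 0.70) and was picked after its value was seen.

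Among innate nucleic acid sensing genes and interferon regulatory factors 4 of 14 were called higher and 0 lower, beside 10.4% and 10.0% of all genes. Tbk1, a kinase that activates interferon regulatory factors, had a log2 fold change of 0.30 (limma adjusted p = 0.0012). Tmem173, the sensor adaptor STING, went from 6.30 to 10.5 CPM (log2 fold change 0.66, limma adjusted p = 0.018), and Ikbke, a kinase related to Tbk1, from 5.61 to 9.16 CPM (log2 fold change 0.62, limma adjusted p = 0.041). Both lost the call when 1 library was left out, Tmem173 for 4 libraries (siCtrl replicates 1 and 2, siAldoa replicates 1 and 3, limma adjusted p = 0.051 to 0.086) and Ikbke for 5 libraries (all but siAldoa replicate 3, limma adjusted p = 0.061 to 0.16). Tbk1 lost it when a replicate number was left out of both groups, for each of the 3 numbers (limma adjusted p = 0.053 to 0.12). It also lost it without the mean-variance trend (limma adjusted p = 0.081).

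Of 14 factors that bind or degrade AU-rich and other cytokine mRNAs, 3 were called higher and 3 lower, beside 10.4% and 10.0% of all genes. Hnrnpd (AUF1), which binds AU-rich elements, fell from 320 to 244 CPM (log2 fold change -0.39, limma adjusted p = 9.1e-07). Rc3h2 (Roquin-2), which binds stem loops in cytokine mRNAs, rose from 79.1 to 109 CPM (log2 fold change 0.45, limma adjusted p = 2.6e-05), with an adjusted p of 0.055 without replicate 2 of both groups. Zfp36l2, which destabilizes AU-rich mRNAs, had a log2 fold change of 0.24 (limma adjusted p = 0.00021), and its adjusted p was 0.087 without the mean-variance trend. Of the 4 measured proteases that shed or trim chemokines, 2 were called higher, namely Adam17 (log2 fold change 0.26), which sheds Cx3cl1, and Mmp14 (log2 fold change 0.22). Adam17 lost its call without siCtrl replicates 1 or 3 or siAldoa replicates 1 or 2 in turn (limma adjusted p = 0.079 to 0.14), and Mmp14 without siCtrl replicate 3 (limma adjusted p = 0.061).

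**Figure D4:**
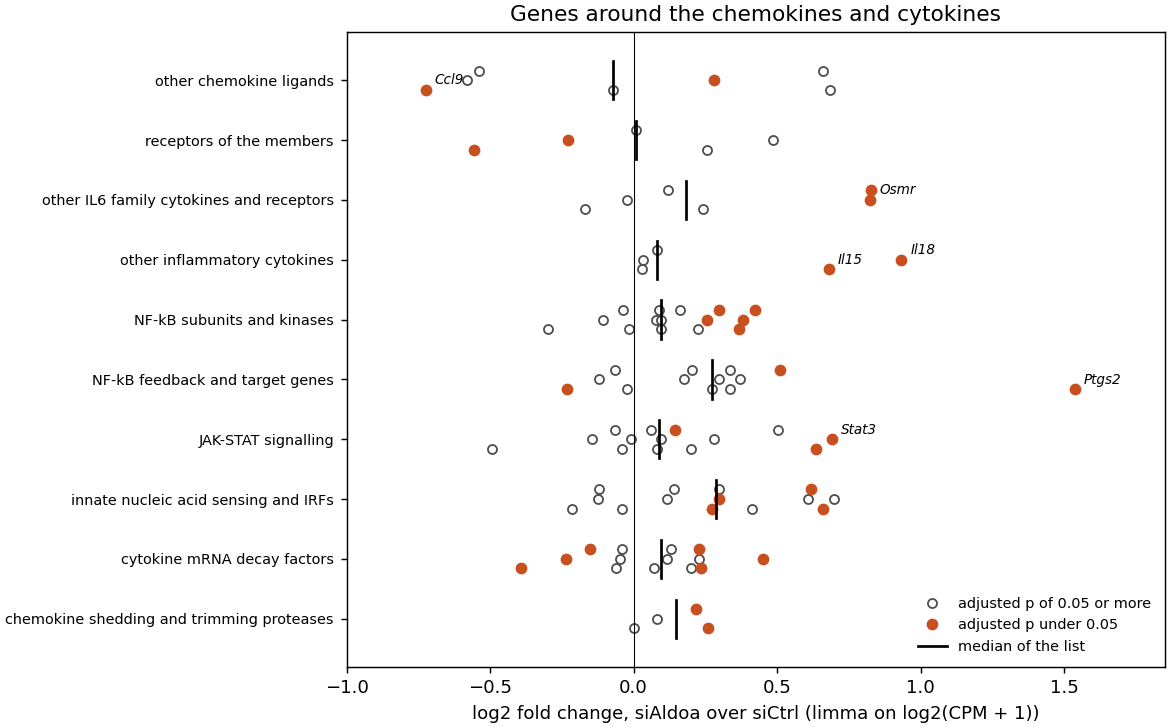
Log2 fold change, siAldoa over siCtrl (limma on log2(CPM + 1)), of the measured genes of 10 lists around the chemokines and cytokines, 1 point per gene, with a vertical line at the list median. Filled points passed the limma test. Ptgs2 stands farthest to the right with 1.54, and the list medians lie between -0.07 and 0.29.

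Over all 10 lists, 97 of 148 genes were in the table, with a median log2 fold change of 0.13. Of the 97 genes, 24 were called higher, 7 lower and 66 not called, beside 10.4% higher and 10.0% lower among all genes. The 24 became 9 without the mean-variance trend, 10 with DESeq2 and 6 without replicate 3 of both groups. Other called genes of the lists, 8 in number and named after their values were seen, were Il15 (log2 fold change 0.68), Ikbkb (0.30), Ccl25 (0.28), Eif2ak2 (0.27), Nfkb2 (0.26) and Rc3h1 (0.23), which were higher, and Elavl1 (-0.23) and Cnot1 (-0.15), which were lower. Of these 8 genes, 7 lost their call without at least 1 library, the exception being Elavl1. Elavl1 lost it without replicate 2 or replicate 3 of both groups (limma adjusted p = 0.053 and 0.061). Without the mean-variance trend Elavl1 lost it as well (limma adjusted p = 0.078). Of the 23 called genes in these lists that the naming rule covered, 6 kept their call in every alternative run, namely Ackr3, Hnrnpd, Osmr, Ptgs2, Rela and Stat3, and 13 kept it with any 1 library left out.

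Markers of other cell types were looked up because macrophages also make these cytokines. The summed level of 10 of 11 macrophage markers was 21.3 to 29.6 CPM in siCtrl and 35.1 to 38.2 CPM in siAldoa. Csf1r, the receptor of the macrophage growth factor, went from 0.992 to 7.91 CPM (log2 fold change 2.18, limma adjusted p = 8.4e-07), and Cd14, a lipopolysaccharide co-receptor, from 12.4 to 19.2 CPM (log2 fold change 0.60, limma adjusted p = 0.0086). Without these 2 genes the sum was 10.7 to 13.7 CPM in siCtrl and 8.55 to 10.3 CPM in siAldoa. The pan-leukocyte gene Ptprc was at 1.54 CPM in siCtrl and 1.24 CPM in siAldoa, and Mrc1 was listed at 0 in all siAldoa libraries. The call of Cd14 was lost without siCtrl replicate 2, siAldoa replicate 2 or siAldoa replicate 3 in turn (limma adjusted p = 0.069 to 0.079). The 5 endothelial markers measured summed to 10.4 to 11.6 CPM in siCtrl and 6.15 to 9.45 CPM in siAldoa, with 0 called. The 4 epithelial markers summed to 18.6 to 19.7 CPM and 7.86 to 14.2 CPM, with 0 called higher and 2 lower. These were Cdh1 (6.32 to 2.76 CPM, limma adjusted p = 0.0071) and Krt8 (1.35 to 0.360 CPM, limma adjusted p = 0.045). The 10 fibroblast markers summed to 13112 to 13648 CPM in siCtrl and 10855 to 11527 CPM in siAldoa. Of these, 4 were called higher (Fn1, Pdgfra, Pdgfrb and Thy1) and 4 lower (Col1a1, Col1a2, Vim and S100a4). Most of the sum came from Col1a2 (4949 to 3635 CPM), Vim (3731 to 3200 CPM) and Col1a1 (3196 to 2546 CPM). For the marker lists too, the shares of all genes were 10.4% higher and 10.0% lower. The part of these markers in the chemokine changes was not tested, and in bulk RNA fewer cells of a type and less RNA per cell cannot be told apart.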

How the data were processed

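RNA of NIH/3T3 cells from 3 siCtrl and 3 siAldoa replicates was sequenced after poly(A) selection. Per the paper's methods and the labels, the authors aligned reads to mm10 with Bowtie2 (version 2.2.7), subsampled them to equal numbers and counted them per gene. They added ERCC RNA to the lysis buffer for replicate 1 and after extraction for replicates 2 and 3. The values were deposited by the authors as CPM of an effective library size. The annotation release, strand use and handling of multiply mapping reads are not given in the sources used here. The authors' own comparison (log2 fold changes, log2 mean CPM, p-values and adjusted p-values) was not used. The paper's methods describe removal of genes below 12 reads over all samples, but the table held 1834 such genes. They are part of the shares given for all genes. Among 14653 genes with a mean of at least 1 CPM, limma called 1993 higher and 1944 lower.

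All CPM values were whole multiples of 1 read (100%, tolerance 0.01), so reads were recovered. Without molecular identifiers, intervals from reads cover counting error only. limma (version 3.58.1, R version 4.3.3) with a mean-variance trend was run on log2(CPM + 1) over 18001 genes, two-sided, with Benjamini-Hochberg adjustment and a threshold of 0.05. edgeR (version 4.0.16) and DESeq2 (version 1.42.0) on recovered reads, a pseudocount of 0.1, a filter at a mean of 1 CPM, other scalings, no trend, a replicate block and left-out libraries were alternatives. Scripts were tested on simulated data. The members and gene lists were chosen with earlier results of these data known. Genes named were all members, the silenced gene, every measured receptor, in each list at most 3 called genes with non-overlapping groups and the largest change, and the 3 genes with a mean of at least 5 CPM most like the member that changed most. Genes named outside this rule are marked in the text. Csf1r, Cd14, Ptprc, Mrc1 and the fibroblast and epithelial genes were named from the marker lists after their values were seen. 1 gene that the rule covered is not reported here.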

Additional observations from a re-analysis of the deposited data

How the results depend on the processing

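Cxcl5 and Cxcl1 kept their call in every alternative, and Ccl7 and Lif in all that did not drop a replicate number from both groups. With libraries left out, 2 to 4 of the chemokine and cytokine genes were higher (2 without replicate 3) and 0 lower, and the log2 fold change lay between 0.8885 and 1.172 for Ccl7 and between 0.5817 and 0.7046 for Lif. In the pathway lists 24 genes were higher, but 9 without the mean-variance trend, 10 with DESeq2 and 6 to 20 with libraries left out. The lower genes there went from 7 to 4 without the trend and to 3 to 7 with libraries left out. Over all genes, the calls went from 1867 higher and 1809 lower to 824 and 616 without the trend, 1066 and 1117 with DESeq2 and 494 and 520 without replicate 3, while edgeR called 1920 and 1866. The direction of Cx3cr1 reversed with quantile normalization (-0.0024), and with libraries left out the log2 fold change ranged from -0.09426 to 0.1555 for Cx3cr1, from -0.3661 to 0.1435 for Ppbp and from -0.09755 to 0.201 for Mthfd2l. For the trend, DESeq2 and quantile normalization the cause was not tested. DESeq2 gave no adjusted p for Il6 and Cx3cl1, and the filter removed Il6.

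The replicate numbers were not taken as pairs, since not every library correlated best with its own number. Libraries with the same number deviated from their groups with correlations of 0.03, 0.0135 and 0.134 for replicates 1, 2 and 3 over 10059 genes. Those of replicates 1 and 2 correlated better with another number. Those of replicate 3 correlated best with each other, against -0.0943 to -0.0461 with other numbers. What the replicate 3 libraries shared was not tested. With a replicate block 4 of the chemokine and cytokine genes were called higher (limma adjusted p = 0.0023 for Ccl7, 0.0012 for Cxcl1, 0.0038 for Lif, 7.2e-08 for Cxcl5), and 1611 genes were higher and 1559 lower overall. In the lists the block removed the calls of Ccl25, Il15 and Cnot1. Depth limits Il6 and Cx3cl1 most, which had at most 7 and 11 reads per library.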
